A study of Mus musculus with 3 samples.

Results

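Monocytes and the macrophages that arise from them were examined in 3 single-cell RNA libraries made from mouse liver, 1 library per mouse and 1 mouse per group. Cells were barcodes with at least 1000 unique molecular identifiers (UMIs, each standing for 1 captured RNA molecule), 300 or more genes and a mitochondrial share of 20% or less. The members were chosen by measured levels of marker genes. They had at least 10 UMIs of Lyz2 (lysozyme) per 10000 and at least 2 UMIs of Ccr2, Chil3, F13a1, Plac8 and Ms4a4c together, genes typical of blood monocytes. Cells with 3 or more UMIs of the dendritic genes Naaa, Xcr1, Clec9a, Cd209a, Flt3 and Zbtb46 were left out. So were cells with more than 1 UMI of Siglech and Ccr9 or of Cd79a and Ms4a1, and cells with 20 or more UMIs per 10000 of the Kupffer cell genes Clec4f, Vsig4 and Cd5l. This rule left 88 of 8087 cells.

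All 3 mice were wild type and ate a diet low in iron (2 to 6 ppm) during 1 week. The IDD mouse had no further treatment, the IDD+HTF mouse received 10 mg holo-transferrin (transferrin, the iron carrier of plasma, loaded with iron) into a vein, and the IDD+HID mouse was given food with 2% carbonyl iron over 18 h. How long after the injection the liver was taken is not stated in the labels. Hepatocytes and the other liver cells were separated and mixed again before loading, so the share of any cell class reflects that mixing as well as the liver. With 1 mouse per group there was no test, and the 95% intervals below cover counting error only, not the difference between animals. A difference between libraries therefore cannot be told apart from a difference between these mice or their preparations.

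Monocytes leave the bone marrow and circulate in a pair of main states. Classical monocytes carry Ly6c2 and Ccr2 and enter tissue, where they can become macrophages, while non-classical monocytes carry Cx3cr1 and Ace and patrol the vessel wall. In the liver they stand beside Kupffer cells, the resident macrophages that take up old red cells, store their iron in ferritin and return it to plasma through ferroportin. Ferritin, the storage shell built from the products of Fth1 and Ftl1, is also controlled in translation by iron, a step that RNA counts do not show.

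The members numbered 17 of 1334 cells in IDD, which is 1.27% (exact Clopper-Pearson interval 0.744 to 2.03%). In IDD+HTF they numbered 23 of 3208, which is 0.717% (0.455 to 1.07%), and in IDD+HID 48 of 3545, which is 1.35% (1.00 to 1.79%). The intervals of IDD and IDD+HTF overlapped, as did those of IDD and IDD+HID. Their depth differed: the median UMIs per member were 4712 (range 1216 to 14674), 6843 (3059 to 13189) and 8723.5 (4047 to 27762) in IDD, IDD+HTF and IDD+HID, and the median over all cells was 3649, 4467 and 8608. The members' UMIs summed to 86809, 159022 and 449594 in the same order. The deepest cell alone held 16.9%, 8.29% and 6.17% of the summed UMIs, so single cells weigh on the sums, most in IDD. The median mitochondrial share was 6.05%, 3.36% and 3.42%.

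The values that chose the members are given as a description. Lyz2 stood at 8329, 12350.5 and 16989 UMIs per 1000000 (CPM, over the summed members of a library) in IDD, IDD+HTF and IDD+HID. Ccr2, the chemokine receptor that draws classical monocytes into tissue, stood at 357, 365 and 754 CPM and had a UMI in 10, 13 and 35 members. Plac8 stood at 668, 1440.1 and 2344 CPM, Ms4a4c at 69.1, 157 and 347, Chil3 (a chitinase-like protein) at 46.1, 182 and 214, and F13a1 (coagulation factor XIII) at 449, 327 and 234. The lowest Lyz2 among members was 10.6, 13.5 and 10.1 per 10000, and the nearest cells outside that limit, all else being met, had 7.53, 9.14 and 4.59. Members near the marker limit had 2 UMIs of the 5 genes and their nearest neighbours outside had 1, a limit that a shallow cell meets less easily.

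The label was checked against marker lists. All 19 genes of the monocyte list were detected in each library, at 19814, 27185 and 36824 CPM in IDD, IDD+HTF and IDD+HID, against 894, 1899 and 2350 CPM in the droplets of at most 100 UMIs, which hold free RNA. The rule used several of these genes. Of the Kupffer cell genes, Clec4f stood at 23, 6.29 and 37.8 CPM and Vsig4 at 104, 0 and 6.67, and the rule itself limited both. The whole list of 10 Kupffer cell genes stood at 6198, 3037 and 3325 CPM, above the 1059, 2666 and 2929 CPM of the droplets. In IDD this included C1qa at 1993 CPM, C1qb at 2108 and Cd163 at 426. T and NK cell genes summed to at most 12.6 CPM, and hepatocyte genes to 991, 1931 and 1908 CPM, against 16687, 30893 and 32888 in droplets. Neutrophil genes stood at 230, 3729 and 153 CPM, and 94.3% of the IDD+HTF value came from 1 cell. Members with at least 2 UMIs of the defining genes of neutrophils, T or NK cells, endothelial cells or stellate cells numbered 5 of 17, 3 of 23 and 6 of 48. No doublet caller was run on so few cells, and the part of such mixed cells in the results below was measured by leaving them out.

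**Figure D1:**
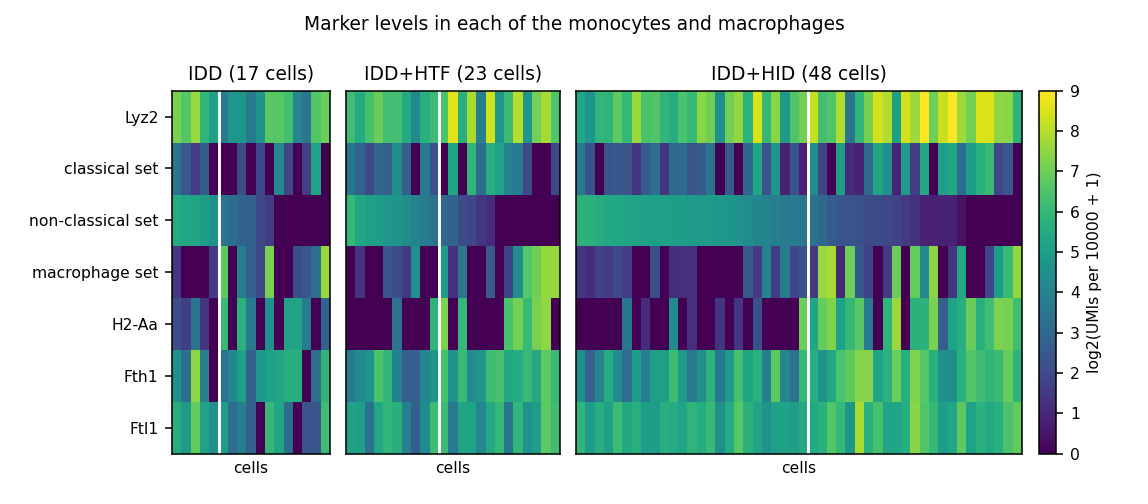
Levels in each member cell (columns) of Lyz2, of the summed classical, non-classical and macrophage sets, and of H2-Aa, Fth1 and Ftl1 (rows), as log2 of UMIs per 10000 plus 1. Cells left of the white line held the non-classical set at 10 or more per 10000 and were mostly dark for H2-Aa in all 3 libraries.

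A total of 3 sets of genes that the rule did not use described the states of the members. The classical set (Ly6c2, Vcan, Fn1, Hp and Mgst1) reached 2 UMIs in 5 of 17 members from IDD (29.4%, 10.3 to 56.0%), 16 of 23 from IDD+HTF (69.6%, 47.1 to 86.8%) and 36 of 48 from IDD+HID (75.0%, 60.4 to 86.4%). After each cell was thinned to 1000 UMIs, the expected shares were 11%, 28.7% and 27.9%. The classical set was therefore seen in more members of both iron-treated mice, at the full and at the matched depth. Free RNA bears on it, since the droplets held the set at 1339, 2599.6 and 2067 CPM, above the 438, 1214 and 1372 CPM of the members, and its part in the shares was not tested.

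The non-classical set (Ace, Treml4, Eno3, Spn, Cd300e and Adgre4) reached 2 UMIs in 47.1% of members from IDD (23 to 72.2%), 60.9% from IDD+HTF (38.5 to 80.3%) and 77.1% from IDD+HID (62.7 to 88.0%), and at the matched depth in 28.0%, 31.3% and 40.2%. Its summed level hardly differed, at 1233, 1138 and 1223 CPM, and the droplets held at most 63.5 CPM. The macrophage set (Adgre1, C1qa, C1qb, C1qc and Mrc1) reached 2 UMIs in 35.3% (14.2 to 61.7%), 52.2% (30.6 to 73.2%) and 54.2% (39.2 to 68.6%) of members, and at the matched depth in 21.4%, 28.5% and 23.8%. Its level was 6048 CPM in IDD against 3314 in IDD+HTF and 3485 in IDD+HID, so the library with the highest sum had the lowest share of members with the set. Many members carried more than 1 set: all 3 sets reached 2 UMIs in 0, 3 and 13 members.

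**Figure D2:**
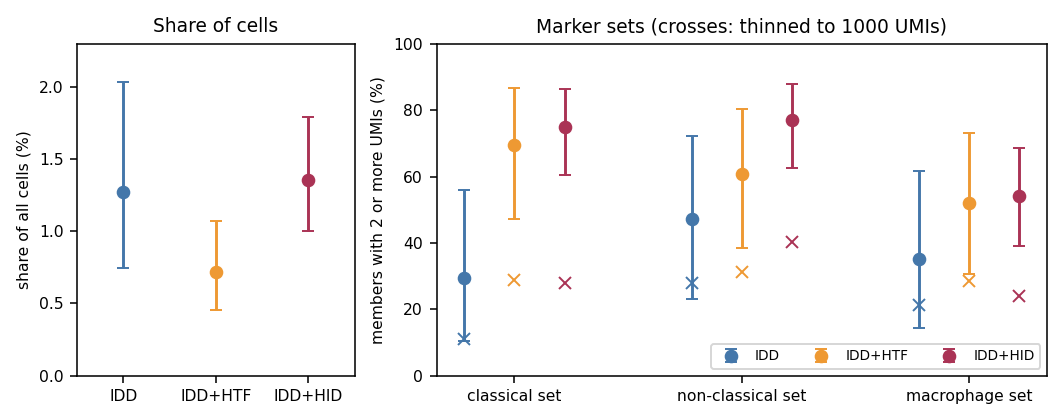
Share of all cells that were members (left) and share of members with 2 or more UMIs of each marker set (right), in percent, 1 point per library. Bars are exact 95% intervals for counting error and crosses are the shares expected after thinning to 1000 UMIs, which lie below the points for every set and library.

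Since the members were a mixture, each main result is also given within a split at 10 UMIs of the non-classical set per 10000, a limit chosen after the values were seen. Members at or above it, called non-classical-high here, numbered 5, 10 and 25 in IDD, IDD+HTF and IDD+HID, which is 29.4% (10.3 to 56.0%), 43.5% (23.2 to 65.5%) and 52.1% (37.2 to 66.7%). The other members numbered 12, 13 and 23. The split is a range and not a cell type, and 4, 4 and 7 cells lay between 5 and 15 per 10000.

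A gene counted as measured in a comparison where the 2 libraries had at least 50 UMIs of it together, and it was called higher or lower at 1.5-fold. For IDD+HTF over IDD, 730 genes were measured, of which 23.7% were higher and 14% lower, with a median log2 ratio of 0.13. For IDD+HID over IDD, 1837 genes were measured, of which 30% were higher and 15.7% lower, with a median of 0.21. For IDD+HID over IDD+HTF, 2076 genes were measured, of which 20.2% were higher and 10.7% lower, with a median of 0.16. These shares are the background against which each list is read. The comparisons with IDD share the same 17 cells. Scaling the libraries by the trimmed mean of M-values (TMM) in place of the total moved all log2 ratios up by 0.28 in the first comparison and by 0.34 in the second, and the calls from 173 higher and 102 lower to 287 and 54, and from 551 and 289 to 879 and 147.

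Both ferritin genes were higher after the iron diet, and Fth1 by less after holo-transferrin. Fth1 (ferritin heavy chain, which oxidises iron; GRCm38 chromosome 19, 9980598 to 9985098) had 312, 739 and 2756 UMIs in IDD, IDD+HTF and IDD+HID, which is 3594, 4647 and 6130.0 CPM. It was 1.71-fold higher in IDD+HID than in IDD (interval 1.52 to 1.92), 1.29-fold higher in IDD+HTF (1.13 to 1.48), and 1.32-fold higher in IDD+HID than in IDD+HTF (1.22 to 1.43). Only the first passes 1.5-fold. The median member held 21.9, 42.4 and 48.3 UMIs of Fth1 per 10000, and the ranges overlapped widely, at 0 to 175, 5.74 to 109 and 6.13 to 164. Free RNA was lower, at 823, 1369.85 and 1641 CPM.

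Ftl1 (ferritin light chain, which helps to form the mineral core; chromosome 7, 45457944 to 45459884) stood at 4089, 4251 and 6232 CPM. It was 1.52-fold higher in IDD+HID than in IDD (1.36 to 1.71) and 1.47-fold higher than in IDD+HTF (1.35 to 1.60). IDD+HTF and IDD lay within 1.04-fold (0.913 to 1.19). The summed Ftl1 of the iron diet library thus stood above both others, whose sums did not differ beyond counting error. In IDD+HID, 4 members picked out after the values were seen held 33.7% of its Ftl1 and 14.8% of all summed UMIs. Their part in these ratios was not tested. The median member held 23.9, 36.1 and 47.1 UMIs of Ftl1 per 10000 in IDD, IDD+HTF and IDD+HID.

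Within the split, the summed levels of the ferritin genes were higher than in IDD among the other members and not among the non-classical-high ones. Among these other members Fth1 stood at 3295, 5868 and 7889 CPM, 2.39-fold higher in IDD+HID than in IDD (2.07 to 2.78) and 1.78-fold higher in IDD+HTF (1.51 to 2.10). Ftl1 stood at 3706, 4853 and 7499 CPM in them, 2.02-fold (1.76 to 2.33) and 1.31-fold (1.11 to 1.54) higher. Among non-classical-high members Fth1 stood at 4291, 2757 and 3516 CPM, with ratios to IDD of 0.643 (0.504 to 0.823) for IDD+HTF and 0.819 (0.669 to 1.01) for IDD+HID. Ftl1 stood at 4980, 3318 and 4351 CPM in them, with ratios of 0.666 (0.532 to 0.836) and 0.874 (0.725 to 1.06). Both ferritin genes were thus called lower in IDD+HTF than in IDD in this range, where 23.6% of all measured genes were lower. The IDD value of this range rests on 5 cells, of which 1 held 175 UMIs of Fth1 per 10000 while the median was 14.1. The Fth1 medians of IDD+HTF and IDD+HID in this range were higher, at 18.2 and 27.7. The order of the Fth1 sums was thus not that of the median cells. The Ftl1 medians were 35.3, 34.6 and 43.6 in IDD, IDD+HTF and IDD+HID. Of the 10 IDD+HTF cells of this range, 2 held 28 and 57 UMIs of endothelial genes. These 2 held Fth1 at 5.74 and 5.77 per 10000, and their part in the lower calls was not tested. Leaving out the Fth1 UMIs of the top member of each library, totals unchanged, gave a log2 ratio of 1.13 for IDD+HID over IDD. With all members it was 0.77. That step takes 1 of 17 members from IDD and 1 of 48 from IDD+HID, which itself tends to raise the ratio. The value of 1.13 therefore does not show a larger difference.

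**Figure D3:**
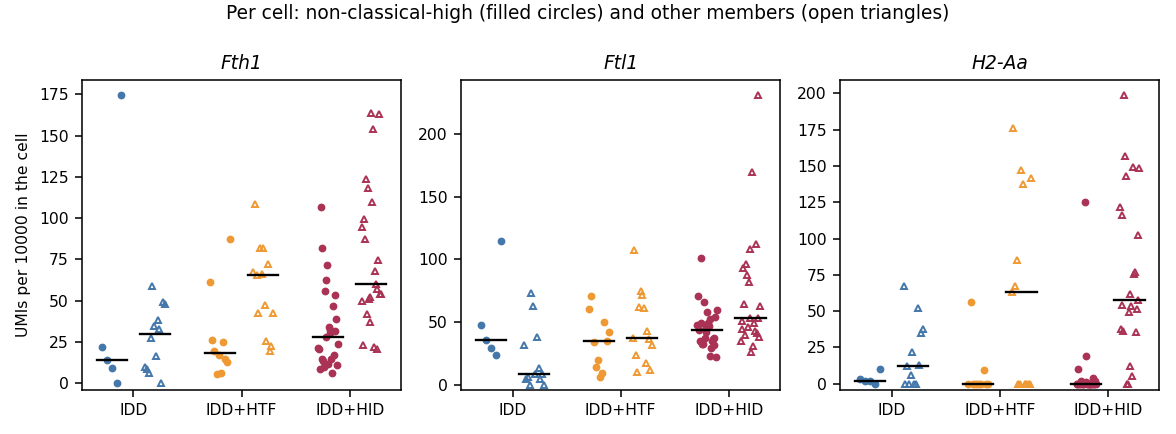
UMIs per 10000 of Fth1, Ftl1 and H2-Aa in each member, by library, with non-classical-high members as filled circles and other members as open triangles, and black lines at the medians. Among the other members the medians of Fth1 were 29.8, 65.8 and 60.1 in IDD, IDD+HTF and IDD+HID.

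The rest of iron handling was mostly too low to measure. Of 25 genes on this list, 3 were measured for IDD+HTF over IDD and none was called. For IDD+HID over IDD, 5 were measured and 3 were higher, namely Fth1, Ftl1 and Hfe (the hereditary haemochromatosis protein, a partner of the transferrin receptors). The median of the 5 was 0.61. Hfe stood at 115, 170 and 185 CPM, from 10, 27 and 83 UMIs, and its ratio of 1.60 had an interval of 0.829 to 3.47. For IDD+HID over IDD+HTF, 5 were measured and none was called, with a median of 0.40.

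Slc40a1 (ferroportin, the only known iron exporter; chromosome 1, 45908068 to 45926523) had 4, 2 and 29 UMIs in the members. That is 46.1, 12.6 and 64.5 CPM, below the 104, 234 and 266 CPM of free RNA, whose part in these values was not tested. Slc40a1 had a UMI in 2, 2 and 9 members, and 1 IDD+HID member held 14.0 UMIs per 10000. Kupffer cells of the IDD library held it at 2318 CPM. Tfrc (transferrin receptor 1, which takes up holo-transferrin) had 1, 2 and 3 UMIs and Nqo1 (a quinone reductase of the oxidative stress response) 0, 0 and 2, and no fold is given. Slc11a1 (an iron transporter of the phagosome) stood at 196, 145 and 202 CPM, from 17, 23 and 91 UMIs, with a ratio of 1.03 (0.611 to 1.85) for IDD+HID over IDD.

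Hmox1 (heme oxygenase 1, which frees iron from heme) stood at 276, 258 and 198 CPM, and none of its ratios passed 1.5-fold. Single cells decided it: 1 member held 87.5% of its UMIs in IDD and 1 held 63.4% in IDD+HTF, against 13.5% in IDD+HID. It had a UMI in 4 of 17, 9 of 23 and 27 of 48 members. Without its UMIs in the top cell of each library, totals unchanged, the log2 ratio of IDD+HID over IDD went from -0.48 to 2.31. Taking 1 of 17 members from IDD and 1 of 48 from IDD+HID itself tends to raise this ratio, and few IDD UMIs were left. No direction is drawn from it. No gene of the heme recycling list was called in either comparison with IDD.

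The summed levels of the genes of antigen presentation by MHC class II were higher in both iron-treated libraries. MHC class II molecules show peptides to helper T cells, and monocytes can come to express them as they become macrophages or dendritic cells. In IDD+HTF, 6 of 6 measured genes of the list of 8 were higher than in IDD, with a median log2 ratio of 1.15. In IDD+HID, 6 of 7 were higher, with a median of 1.36, and the seventh was Ciita (the master activator of these genes) at -0.41, from 18 and 70 UMIs. Between IDD+HID and IDD+HTF, 3 of 7 were higher, with a median of 0.21.

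H2-Aa (class II alpha chain; chromosome 17, 34282744 to 34287823) had 131, 806 and 2111 UMIs, which is 1509, 5068 and 4695 CPM. It was 3.36-fold higher in IDD+HTF than in IDD (2.79 to 4.07) and 3.11-fold higher in IDD+HID (2.61 to 3.74), and the iron-treated libraries lay within a ratio of 0.926. Free RNA held 301, 337 and 669 CPM. Few members carried the gene at a high level: it had a UMI in 12 of 17, 9 of 23 and 29 of 48 members, and the median member held 6.26, 0 and 4.75 UMIs per 10000 while the highest held 67.4, 176 and 199. The summed level was thus higher in IDD+HTF although fewer of its members than in IDD had a UMI.

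H2-Ab1 (beta chain) stood at 1878, 4169 and 4809 CPM and H2-Eb1 (the beta chain of the second class II molecule) at 1601, 4106 and 4106 CPM. Cd74 (the invariant chain, which guards the groove until peptide is loaded) stood at 4930.4, 10766 and 12179.9 CPM. Its sum was 2.18-fold higher in IDD+HTF than in IDD (1.96 to 2.43) and 2.47-fold higher in IDD+HID (2.24 to 2.73). The median member, in contrast, held most in IDD, at 42.3, 12.5 and 28.0 UMIs of Cd74 per 10000. For H2-Ab1 the medians were 6.03, 2.57 and 5.63. These sums thus also rested on members with high levels. Among the other members of the split, the Cd74 medians were 45.1, 83.7 and 172. H2-DMa and H2-DMb1, which form the editor that exchanges peptides, were lower throughout, at 196, 308 and 534 CPM and at 138, 308 and 532 CPM. The H2-DMa ratio of 1.57 for IDD+HTF over IDD had an interval of 0.89 to 2.91, while H2-DMb1 was 3.85-fold higher in IDD+HID than in IDD (2.16 to 7.55).

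**Figure D4:**
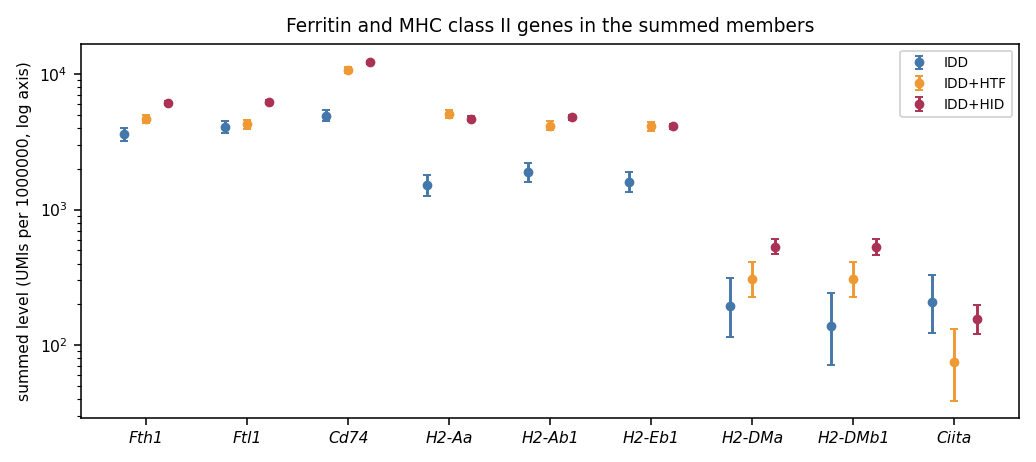
Summed level in the members of each library, in UMIs per 1000000 on a log axis, for the ferritin genes, Cd74 and the other MHC class II genes, and Ciita. Bars are exact Poisson 95% intervals; H2-Aa stood at 1509, 5068 and 4695 in IDD, IDD+HTF and IDD+HID.

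Within the split, H2-Aa stood at 2009.7, 7989 and 7179 CPM in the other members and at 345, 545 and 1006 CPM in the non-classical-high ones. In the other members 6 of 6 and 6 of 7 list genes were higher than in IDD, with medians of 1.46 and 1.71, beside 36.9% and 40.5% of all measured genes. In the non-classical-high members only Cd74 was measured for IDD+HTF over IDD, and it was lower, at -1.05. For IDD+HID over IDD, 3 of 4 were higher there, beside 23.1% of all measured genes. How the members were drawn changed this count. When the rule was applied to cells thinned to 1000 UMIs, 0 list genes were higher in IDD+HTF and 1 in IDD+HID. That selection kept 15, 21 and 56 cells, of which 12, 16 and 27 were members as defined here, and 3, 4 and 29 of which held 3 or more UMIs of the dendritic genes that the rule at full depth excludes. With each cell of equal weight, 3 and 6 were higher.

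The promoters of these genes are shown because their summed levels were higher together in both iron-treated libraries. Textbook class II promoters hold an S box, an X box and a Y box, the last with the letters ATTGG, and CIITA acts through the proteins bound there. RefSeq (GRCm38.p6) promoters were at hand for 5 of the 8 list genes, in 6 entries. The 120 bases before the start are given below for 3 of them, 5′ to 3′ on the strand of the gene, with ATTGG or its complement CCAAT in capitals. H2-Aa lies at chr17:34287824-34287943 on the minus strand, H2-Eb1 at chr17:34305747-34305866 and H2-DMb1 at chr17:34153071-34153190, both on the plus strand.
H2-Aa: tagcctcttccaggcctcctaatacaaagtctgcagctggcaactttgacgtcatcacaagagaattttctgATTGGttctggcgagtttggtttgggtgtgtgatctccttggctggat
H2-Eb1: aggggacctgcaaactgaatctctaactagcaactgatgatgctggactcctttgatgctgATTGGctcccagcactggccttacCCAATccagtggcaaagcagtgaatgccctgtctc
H2-DMb1: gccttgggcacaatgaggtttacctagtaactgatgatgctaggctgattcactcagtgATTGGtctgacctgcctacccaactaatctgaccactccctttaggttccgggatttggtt
ATTGG, on either strand within 250 bases before the start, was found in 5 of the 6 entries and in 33.8% of 32851 promoters. It stood 48 bases before the start in H2-Aa, 61 in H2-DMb1, and 59 and, on the other strand, 35 in H2-Eb1. In the list genes H2-DMa and H2-DMb2, whose sequences are not printed, it stood farther away, at 198 and 90 bases. The X box was searched in 3 forms of 10 or more letters. Its strictest form was found in 1 entry, that of H2-DMb1, and in 0.0487% of all promoters, and each of its looser forms in 2 entries (2.5% and 3.28% of all). TGACNNNGC was found in 1 entry (10.2% of all). CTNGNAACT was found in 3 entries and in 3.47% of all, but was read off the printed sequences after they were seen. A match is a description of letters and says nothing of binding in these cells.

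Immediate early and heat shock genes, which are switched on within minutes of a signal and also by the digestion of tissue, stood highest in IDD+HTF. Of 22 measured genes of the list of 25, 13 were higher in IDD+HTF than in IDD and 0 lower, with a median log2 ratio of 0.85. In IDD+HID, 5 of 23 were higher than in IDD and 4 lower, with a median of -0.01. Against IDD+HTF, 0 of 23 were higher in IDD+HID and 11 lower, with a median of -0.58. Fos (a subunit of the factor AP-1) stood at 1728, 3339 and 1659 CPM, 1.93-fold higher in IDD+HTF than in IDD (1.61 to 2.33), and IDD+HID and IDD lay within a ratio of 0.960 (0.805 to 1.15). Jun (its partner) stood at 991, 1736 and 819 CPM and Hspa1a (a heat shock chaperone) at 1774, 2452 and 883.

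Klf2 and Klf4, transcription factors of monocytes and vessel walls, were higher in both libraries. Klf2 stood at 529.9, 1534 and 1294 CPM, 2.90-fold (2.11 to 4.06) and 2.44-fold (1.81 to 3.37) above IDD, and Klf4 at 346, 1056 and 714 CPM. Fosb had 2 UMIs in IDD and stood at 23, 346 and 271 CPM, with a ratio of 15 (3.96 to 127) for IDD+HTF over IDD, and the free RNA held it at 47.5, 126 and 215 CPM. In the non-classical-high members, 5 of 17 list genes were higher and 4 lower in IDD+HTF than in IDD (29.4% and 23.5%), beside 18.7% and 23.6% of all measured genes, and Fos was lower there, at -0.54. In the other members 13 of 21 were higher and 0 lower, beside 36.9% and 14.3%. With the rule on thinned cells, the signs of Jun in IDD+HTF over IDD (-0.35) and of Klf2 (-0.59) and Klf4 (-0.37) in IDD+HID over IDD turned. The part of the preparation of the cells in these values was not tested.

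Genes of classical monocytes were higher in both iron-treated libraries, with 3 of 5 measured genes higher and 0 lower in IDD+HTF over IDD (median 0.64), and 7 of 11 higher and 0 lower in IDD+HID over IDD (median 0.66). Over all measured genes 23.7% and 30% were higher and 14% and 15.7% lower. Ly6c2 (a surface protein that defines classical monocytes; chromosome 15, 75108158 to 75111970) had 3, 43 and 219 UMIs, in 2, 7 and 17 members. It stood at 34.6, 270 and 487 CPM, with a ratio of 14.1 (4.76 to 68.9) for IDD+HID over IDD. It was also 1.80-fold higher in IDD+HID than in IDD+HTF (1.29 to 2.56), and free RNA held at most 55.2 CPM. Hp (haptoglobin, which binds free haemoglobin) stood at 161, 453 and 447 CPM but at 1709.6 and 1123 CPM in the free RNA of IDD+HTF and IDD+HID. Ifitm6 stood at 138, 220 and 354 CPM, with free RNA at or below 5.91. In the other members, 4 of 4 and 7 of 10 list genes were higher than in IDD and 0 lower, beside 36.9% and 40.5% of all measured genes. In the non-classical-high members, 0 of 2 were higher and 1 lower in IDD+HTF over IDD (median -0.24), and 4 of 6 higher and 0 lower in IDD+HID over IDD, beside 18.7% and 23.1% higher over all genes.

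The non-classical list showed no common direction, with 2 of 11 higher and 2 lower in IDD+HTF over IDD, and 6 of 16 higher and 3 lower in IDD+HID over IDD. Cx3cr1 (the receptor for fractalkine that holds patrolling monocytes at the vessel wall; chromosome 9, 119901616 to 120069879) stood at 184, 465 and 360 CPM, in 8, 19 and 38 members. It was 2.52-fold higher in IDD+HTF than in IDD (1.46 to 4.64) and 1.95-fold higher in IDD+HID (1.17 to 3.50), and the latter turned to -0.050 on the log2 scale with the rule on thinned cells. In the non-classical-high members it stood at 383, 433 and 337 CPM and in the others at 98.8, 486 and 376, so the libraries lay close in the first and apart in the second.

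The macrophage maturation list was mixed, and 2 IDD cells decided its lower side. In IDD+HTF over IDD, 2 of 9 genes were higher and 4 lower, and in IDD+HID over IDD, 5 of 15 were higher and 4 lower. C1qa (a chain of complement C1q, made by mature macrophages) stood at 1993, 912 and 1041 CPM. Its 173 UMIs in IDD lay in 3 cells, and 91.9% of them in 2 cells that also held all 128 UMIs of Pf4, all 52 of Lyve1 and all 48 of Ltc4s of that library. These 2 cells held 31.6% of the summed IDD UMIs, 11 UMIs of Timd4 and 37 of Cd163, which mark resident macrophages, and no UMI of Ccr2, Plac8 or Cx3cr1. They also held 28 and 10 UMIs of the stellate cell genes, whose part was not tested. Without them and the 2 like cells of IDD+HTF, 6 of 7 list genes were higher and 0 lower in IDD+HTF over IDD, and 12 of 15 and 0 in IDD+HID over IDD, beside 30.8% and 37.2% of all measured genes higher. This selection was made after the values were seen. When all members with markers of other cell types were left out, 5 of 7 and 7 of 11 were higher and 0 lower, beside 32.5% and 37.6%. Without only the 2 IDD and 2 IDD+HTF cells, C1qa turned from -1.13 to 1.44 in IDD+HTF over IDD. In IDD+HID over IDD it turned from -0.94 to 2.14. Without all members with markers of other cell types, C1qa stood at 1.76 and 1.77 in these comparisons.

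Lgals3 (galectin 3, a lectin of inflammatory macrophages) was higher with and without those cells. It stood at 288, 685 and 1052 CPM in 9, 19 and 44 members, 2.38-fold higher in IDD+HTF than in IDD (1.53 to 3.84) and 3.65-fold higher in IDD+HID (2.44 to 5.70). Without the 2 IDD and 2 IDD+HTF cells above, its log2 ratios were 1.04 and 1.57. In the non-classical-high members it stood at 536, 545 and 492 CPM and in the other members at 181, 776 and 1429. Apoe was called higher in both libraries, but members and free RNA held it at the same level.

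**Figure D5:**
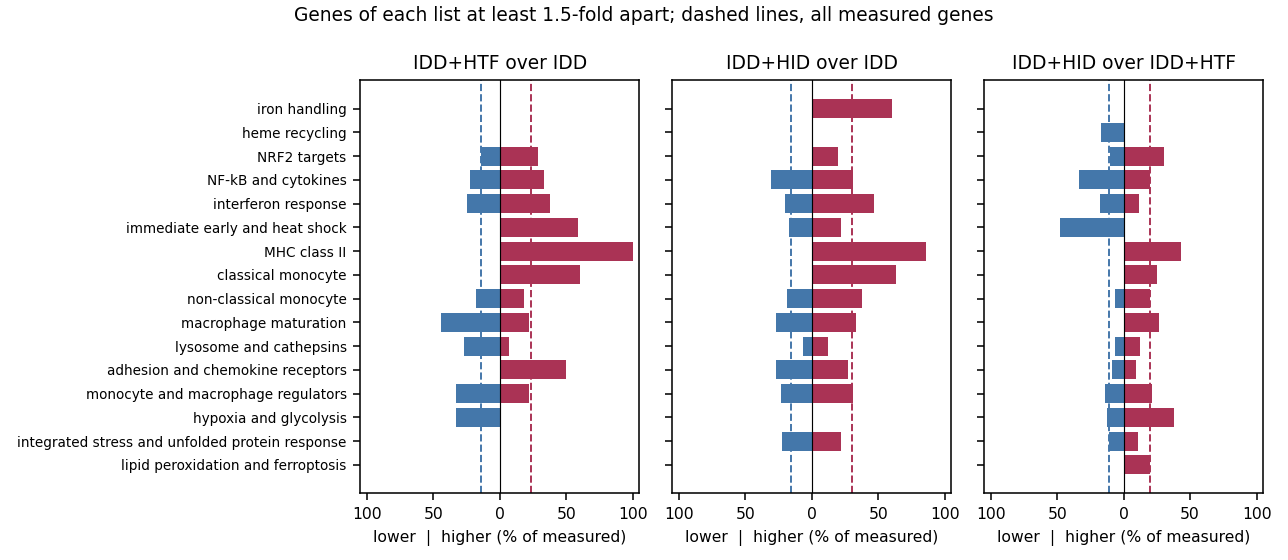
Share of the measured genes of each list that were at least 1.5-fold higher (bars to the right) or lower (bars to the left), in percent, for each pair of libraries. Dashed lines mark the same shares over all measured genes; MHC class II lies beyond the line in both comparisons with IDD, and the immediate early list lies beyond it to the right in IDD+HTF over IDD and to the left in IDD+HID over IDD+HTF.

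Several of the largest differences rested on small groups of cells, which were picked out after the values were seen. In IDD+HID, 4 members held 528 of the 532 UMIs of Spp1 (osteopontin, a matrix protein of lipid-laden and scar macrophages; chromosome 5, 104435118 to 104441050), all 92 of Gpnmb (a lysosomal glycoprotein) and 48 of the 74 of Trem2 (a lipid receptor). Spp1 had a UMI in 3 of the 4, and 1 of the 4 held 28 UMIs of the endothelial gene Clec4g, whose part was not tested. Each of the 4 held Ccr2, at 9 to 29 UMIs, and none held Plac8. They held 14.8% of the summed UMIs of that library, 24.9% of its Fth1 and 33.7% of its Ftl1. Spp1 was at 0 in IDD, so it was at least 34.2-fold higher in IDD+HID (floor of 3 UMIs per library), and 14.5-fold higher than in IDD+HTF (8.39 to 27.4), where it had 13 UMIs. Gpnmb had 1 UMI in IDD+HTF, with a ratio of 32.5 (5.70 to 1.3e+03).

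Another 4 members of IDD+HID held all 77 UMIs of Cd207 (langerin, a lectin of Langerhans cells and some macrophages; chromosome 6, 83671215 to 83677857). These cells held 52.8% of the C1qa of the library, 467 UMIs of H2-Aa, 5 of Ccr2 and none of Plac8. Cd207 was at 0 in IDD and IDD+HTF, and so at least 9.08-fold higher in IDD+HID than in IDD+HTF. In IDD+HTF, 1 member held 262 UMIs of S100a8 and 261 of S100a9, the neutrophil calprotectin genes, with 10 of Retnlg, 7 of Mmp9 and only 8 of Lyz2. The 10 genes with the lowest ratios in IDD+HID over IDD included Pf4, Lyve1, Ltc4s, Fcna, Timp2, Cxcl13 and Retnla. The 2 IDD cells above held all UMIs of Pf4, Lyve1, Ltc4s and Retnla in that library, and 1 cell held all 60 of Cxcl13 and 1 held 91.3% of Fcna. The 10 with the highest ratios included Clec4g, Kdr and Plpp3, genes of the sinusoidal endothelium that stood below the free RNA, and Tmcc3, Ppp1r2 and Zmat2, each with 1 UMI in IDD.

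Among measured genes, the interval lay wholly past 1.5-fold for 51 higher and 22 lower genes in IDD+HTF over IDD, for 92 and 64 in IDD+HID over IDD, and for 43 and 63 in IDD+HID over IDD+HTF. The 10 highest in IDD+HTF over IDD included Pglyrp1 (a protein that binds bacterial cell walls) at 69.1, 321 and 236 CPM in 5, 11 and 23 members, the ribosomal gene Rpl27 at 104, 472 and 216 CPM, and the splicing gene Snrpg at 69.1, 302 and 200.2 CPM. Serpina3k, a gene of hepatocytes, was also among them but stood below the free RNA in each library.

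Among inflammatory genes, the chemokine genes Ccl3 and Ccl4 stood higher than in IDD in both iron-treated libraries and Il1b differed little. Ccl3 (a chemokine that draws monocytes; chromosome 11, 83647844 to 83649355) stood at 69.1, 340 and 810 CPM in 3, 11 and 25 members. It was 4.91-fold (2.12 to 14.0) and 11.7-fold (5.33 to 32.1) above IDD. Ccl4 stood at 219, 1132 and 916 CPM, and its IDD value came from 1 cell. Il1b (interleukin 1 beta) stood at 1417, 1641 and 1586 CPM, with ratios of 1.16 (0.931 to 1.45) and 1.12 (0.923 to 1.37). Nfkbiz (a nuclear regulator of NF-kB) was lower in both, at 841, 415 and 178 CPM. Of the list of NF-kB targets and cytokines, 3 of 9 were higher and 2 lower in IDD+HTF over IDD, 4 of 13 were higher and 4 lower in IDD+HID over IDD, and 3 of 15 were higher and 5 lower in IDD+HID over IDD+HTF. Over all measured genes 23.7%, 30% and 20.2% were higher in these comparisons and 14%, 15.7% and 10.7% lower.

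Of the interferon list, 3 of 8 were higher and 2 lower in IDD+HTF over IDD, and 7 of 15 were higher and 3 lower in IDD+HID over IDD. Over all measured genes 23.7% and 30% were higher and 14% and 15.7% lower. Isg15 (a ubiquitin-like protein made on interferon signals; chromosome 4, 156199424 to 156200818) stood at 57.6, 415 and 158 CPM, from 5, 66 and 71 UMIs. It was 7.21-fold higher in IDD+HTF than in IDD (2.94 to 22.9) and 2.74-fold higher in IDD+HID (1.12 to 8.70). Between the iron-treated libraries the ratio was 0.380 (0.268 to 0.540), and it turned to 0.14 on the log2 scale with the rule on thinned cells. Bst2 (tetherin, which holds budding virus at the surface) stood at 57.6, 277 and 351 CPM. Cxcl10 (a chemokine induced by interferon) was lower in both, at 541, 182 and 73.4 CPM in 4, 2 and 6 members. In IDD 1 cell held 57.4% of its UMIs, and with the rule on thinned cells IDD+HID over IDD turned to 0.37 on the log2 scale.

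Between the iron-treated libraries, Rhob (a small GTPase that follows stress signals; chromosome 12, 8497661 to 8500009) stood lower in IDD+HID, at 956, 1377 and 238 CPM in the 3 libraries, with a ratio of 0.173 (0.136 to 0.219). Ddit4 (a brake on growth signalling that hypoxia and glucocorticoids induce) stood at 23, 220 and 37.8 CPM, with a ratio of 0.172 (0.0903 to 0.315). Mt1 (metallothionein, which binds zinc and copper) stood at 380, 887 and 209 CPM, with 1 cell holding 78.8% of it in IDD. Of the hypoxia and glycolysis list, 3 of 8 were higher and 1 lower. Gapdh and Ldha, enzymes of glycolysis, were 2.21-fold (1.58 to 3.15) and 2.07-fold (1.26 to 3.56) higher in IDD+HID than in IDD+HTF, and Gapdh stood at 472, 258 and 569 CPM, so IDD+HTF was the low library. Thbd (thrombomodulin, which restrains clotting) had 14, 4 and 60 UMIs and was 5.31-fold higher in IDD+HID than in IDD+HTF (1.97 to 20.1). Hadha (an enzyme of fatty acid oxidation) had 3, 4 and 55 UMIs, in 29 of the 48 IDD+HID members, with a ratio of 4.86 (1.80 to 18.5). Bcl2a1a (an inhibitor of cell death with near-identical copies, so its count is uncertain) stood at 92.2, 31.4 and 176 CPM. Ccl24, Slbp and Serpina3g, also among the largest differences, each rested on 1 cell.

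Beside the remaining lists, 23.7% and 30% of all measured genes were higher and 14% and 15.7% lower in IDD+HTF and IDD+HID over IDD. Of these lists, NRF2 targets had 2 of 7 higher and 1 lower in IDD+HTF over IDD and 2 of 10 higher in IDD+HID over IDD. Within the split, 6 of 7 NRF2 targets were higher and 0 lower in IDD+HID over IDD among the other members (median 1.14), beside 40.5% and 16.2% of all measured genes. Among the non-classical-high members 0 of 6 were higher and 4 lower (median -0.74), beside 23.1% and 12.5%. Lysosome and cathepsin genes had 1 of 15 higher and 4 lower, and 2 of 16 higher and 1 lower. Genes of lipid peroxidation and ferroptosis, the iron-dependent form of cell death, had 0 of 3 and 0 of 5 called. Among regulators, 2 of 9 were higher and 3 lower in IDD+HTF over IDD, with Runx1 (a factor of blood cell development) at 495, 157 and 176 CPM.

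Other myeloid cells of the same libraries were set beside the members. In IDD the members' Fth1 lay below that of Kupffer cells and neutrophils and above that of conventional dendritic cells, and in IDD+HID it lay near the first and the second and well above the third. Kupffer cells (163, 369 and 478 cells) held it at 5189, 6499 and 6610.1 CPM and neutrophils (14, 15 and 31 cells) at 6419, 5234 and 5599.8. Conventional dendritic cells (63, 179 and 490 cells) held only 1880.3, 1222 and 1515 CPM. Ftl1 stood at 5291, 6243 and 8738 CPM in Kupffer cells, at 6669, 4125 and 5478 CPM in neutrophils, where IDD was highest, and at 1355, 1435 and 2691 CPM in dendritic cells. The order for H2-Aa was opposite to that of the members in both classes rich in it: Kupffer cells stood at 6529.8, 1856 and 4003 CPM and dendritic cells at 5115, 1556 and 1595, each highest in IDD, where the members were lowest. In IDD+HTF and IDD+HID the dendritic class held less H2-Aa than the members. The part of depth and of other cells entering that class was not tested. The differences between classes were not tested either, since each library is 1 mouse.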

How the data were processed

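The liver libraries were 10x Genomics Chromium droplet libraries, per the labels' protocols. The authors deposited raw UMI counts for each gene in each barcode, without normalization or a filter on barcodes. GRCm38 and Seurat 4 are named in the submitters' processing notes. No aligner or counting tool was given in the sources used here. Each library summed to 34552858 (IDD), 55478904 (IDD+HTF) and 75404660 (IDD+HID) UMIs. Of these, 10.9%, 3.94% and 3.36% lay in droplets of at most 100 UMIs, and 1 cell barcode was shared by each pair of libraries. Symbols and positions came from GENCODE M21 (GRCm38), where 54587 of 55421 gene identifiers matched with their version.

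The members, the gene lists, the marker lists and the named genes were chosen with earlier results of these data known. UMIs were summed over the members of a library and given per 1000000 (CPM). Ratios carry exact conditional binomial 95% intervals, CPM exact Poisson and shares Clopper-Pearson intervals, and all cover counting error only. A group at 0 was set to a floor of 3 UMIs per library. No test was made, since each group was 1 mouse. Named genes were 13 chosen whatever their values and, in each comparison, the 10 highest and 10 lowest measured genes whose interval lay wholly past 1.5-fold, apart from mitochondrial, ribosomal RNA and unnamed genes. List examples were up to 4 called genes per list, and single genes outside these rules were picked after their values were seen. Of the gene sets and lists first drawn up, 2 genes are not reported here and were left out of every set and list. Thinning used the hypergeometric expectation. Alternatives covered the rule, scaling, filters, the weight of cells and free RNA, and those on the non-classical split, the Pf4 cells and the top cell were added after the data were seen. The ratio and thinning code was tested on simulated data. Python 3.11.15, numpy 2.4.6, scipy 1.17.1, pandas 2.3.3, matplotlib 3.10.9, R 4.3.3 and edgeR 4.0.16 (TMM only) were used.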

Additional observations from a re-analysis of the deposited data

How the results depend on the processing

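These results are limited by 1 mouse per group, 17 members in IDD, and single cells that hold up to 16.9% of a library's summed UMIs. No paired analysis was possible because each group holds 1 library. Of the shares, states and counts of genes under the alternatives, 131 stayed within counting error or 1.5-fold of the reported value and 40 did not. Of the log2 ratios of named genes, 2437 stayed within the counting interval, 385 left it and 60 that had passed 1.5-fold turned. The cause was not tested beyond what the makeup of an alternative shows. 

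With TMM scaling, the counts were IDD+HTF over IDD 287 higher and 54 lower, IDD+HID over IDD 879 higher and 147 lower. With median-of-ratios scaling, the counts were IDD+HTF over IDD 281 higher and 54 lower, IDD+HID over IDD 171 lower. With genes of at least 20 UMIs in the pair, the counts were IDD+HTF over IDD 474 higher and 457 lower, IDD+HID over IDD 1199 higher and 934 lower, IDD+HID over IDD+HTF 1117 higher and 687 lower. With genes of at least 1 UMI in each library, the counts were IDD+HTF over IDD 1864 higher and 3697 lower, IDD+HID over IDD 1831 higher and 4326 lower, IDD+HID over IDD+HTF 2351 higher and 3196 lower. With a 2-fold rule, the counts were IDD+HTF over IDD 78 higher and 28 lower, IDD+HID over IDD 278 higher and 123 lower, IDD+HID over IDD+HTF 124 higher and 83 lower. Among non-classical-high members only, the counts were IDD+HTF over IDD 42 higher and 53 lower, IDD+HID over IDD 148 higher and 80 lower, IDD+HID over IDD+HTF 189 higher and 96 lower. Among the other members only, the counts were IDD+HTF over IDD 58 lower, IDD+HID over IDD 169 lower, IDD+HID over IDD+HTF 265 higher. Without each gene's UMIs in its top cell of each library, totals unchanged, the counts were IDD+HTF over IDD 64 lower, IDD+HID over IDD 896 higher and 153 lower, IDD+HID over IDD+HTF 651 higher. That cell is 1 of 17 members in IDD, 1 of 23 in IDD+HTF and 1 of 48 in IDD+HID. The step thus tends to take a larger share from the library with fewer members, and a shift towards higher calls is built in. A gene with 1 UMI in both libraries counts as lower in the deeper one, which adds to the lower calls with no further minimum. With the rule on thinned cells, 55.4% of the IDD+HID members held the non-classical set, against 77.1%. With 3 UMIs in place of 2, the macrophage set was held by 35.4% of the IDD+HID members, against 54.2%.

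The log2 ratios listed next passed 1.5-fold in all members, at 50 or more UMIs, and had the opposite sign under an alternative. Ratios within 1.5-fold in all members, such as Hmox1 and, for IDD+HTF over IDD, both ferritin genes, are not listed here even where their sign turned. With the rule applied to cells thinned to 1000 UMIs, these were IDD+HTF over IDD Cd74 -0.47, H2-Ab1 -0.33, H2-DMb1 -0.64, Jun -0.35, IDD+HID over IDD Cx3cr1 -0.050, Cxcl10 0.37, Klf2 -0.59, Klf4 -0.37, IDD+HID over IDD+HTF Ccl24 -1.41, Eno1 -0.095, Isg15 0.14, Lgals3 -0.018. Without members holding markers of other cell types, these were IDD+HTF over IDD C1qa 1.76, C1qb 0.75, Fcna 0.39, Ltc4s 0.61, Lyve1 0.26, Pf4 2.32, Retnla 4.01, S100a10 2.71, Timp2 3.14, IDD+HID over IDD C1qa 1.77, C1qb 0.43, C5ar1 1.03, Fn1 -0.62, Timp2 1.67, IDD+HID over IDD+HTF Ccl24 -4.53. With each cell of equal weight, these were IDD+HTF over IDD C1qa 0.041, H2-DMa -0.21, Retnla 0.39, IDD+HID over IDD C1qa 0.067, Thbs1 -0.34. Among non-classical-high members only, these were IDD+HTF over IDD Cd74 -1.05, Fos -0.54, H2-DMa -0.67, Runx1 0.20, IDD+HID over IDD C5ar1 0.21, Cd74 -0.085, Cx3cr1 -0.18, Cxcr4 -0.14, Fth1 -0.29, Ftl1 -0.19, H2-DMa -0.54, Lgals3 -0.12, Runx1 0.38, IDD+HID over IDD+HTF Lgals3 -0.15. Among the other members only, these were IDD+HID over IDD+HTF Slbp 0.22. Without the members holding Pf4, Lyve1 and Ltc4s, these were IDD+HTF over IDD C1qa 1.44, C1qb 0.59, Pf4 1.91, S100a10 1.56, Timp2 1.86, IDD+HID over IDD C1qa 2.14, C1qb 0.93, C5ar1 1.25, Timp2 2.25. Without the gene's UMIs in its top cell of each library, these were IDD+HTF over IDD S100a10 0.97, IDD+HID over IDD C1qb 0.060, IDD+HID over IDD+HTF Ccl24 -4.08, Slbp 0.20. The other UMIs of that cell stayed in the library total, which lowers the level of a library whose top cell is large. The small C1qb value therefore does not settle its sign. The members with markers of other cell types included the 2 IDD cells with Pf4, Lyve1 and Ltc4s.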

Other observations

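Receptors for adhesion and chemokines were also measured. Of this list of 15 genes, 4 of 8 were higher and 0 lower in IDD+HTF over IDD, beside 23.7% and 14% of all measured genes, while 3 of 11 were higher and 3 lower in IDD+HID over IDD. Cxcr4 (the receptor that keeps monocytes in the marrow and in tissue) stood at 334, 516 and 607 CPM in IDD, IDD+HTF and IDD+HID, in 8, 18 and 44 members, and was 1.82-fold higher in IDD+HID than in IDD (1.24 to 2.77). Itga4 (an integrin chain that binds the vessel wall) stood at 461, 780 and 578 CPM and was 1.69-fold higher in IDD+HTF than in IDD (1.18 to 2.48). C5ar1 (the receptor for complement C5a) stood at 207, 119 and 80.1 CPM, and 1 cell held 55.6% of its UMIs in IDD.

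Of the cell cycle list, only Cdkn1a (p21, an inhibitor of the cycle) was measured, at 253, 478 and 391 CPM, 1.89-fold higher in IDD+HTF than in IDD (1.16 to 3.18). Genes of the unfolded protein response had 0 of 4 called in IDD+HTF over IDD and 2 of 9 higher and 2 lower in IDD+HID over IDD. Sterol synthesis was too low to describe, with 1 gene measured, Insig1, in IDD+HID over IDD.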
